A study of Mus musculus with 3 samples.

Results

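The 10 genes described here encode the mouse MHC class II presentation machinery and its master regulator: H2-Aa, H2-Ab1, H2-Eb1, H2-Eb2, H2-DMa, H2-DMb1, H2-Oa, H2-Ob, Cd74 and Ciita. They are taken by name, and the rule uses no measured value, although the list was chosen with earlier results of these data known. All 10 were found by symbol among the 20738 genes named on the arrays. Each gene's value is the mean of its features on each of 3 arrays, and no low-value filter was applied.

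The RNA came from whole proximal jejunum, the upper small intestine beyond the duodenum. On every array the Cy5 channel held RNA of a different mouse labelled as a Sox4 knockout made with vilCre, and the Cy3 channel held wild-type RNA of the same tissue. Villin-driven Cre acts in the intestinal epithelium and not in the lamina propria, muscle and lymphoid cells that whole jejunum also holds. The labels do not say whether wild-type RNA was pooled, and give no age, strain or sex of the mice. Each value is a log2 ratio, knockout divided by wild type. The direction was taken from the dyes, since the deposited table does not state it, and with Cy3 as numerator every sign below would be the opposite. Base 2 was likewise taken as the usual unit; if the logarithm were natural, the folds would be larger (4.49 in place of 2.83 for Cd74).

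MHC class II molecules are surface heterodimers that show peptides from endocytosed protein to CD4 T cells. They assemble with the invariant chain, Cd74, which blocks the groove until proteases trim it to a short fragment. H2-DM then exchanges that fragment for peptide, and H2-O restrains H2-DM. Dendritic cells, macrophages and B cells carry class II constitutively. Enterocytes and crypt cells of the small intestine also carry it, chiefly under interferon gamma and microbial exposure, through Ciita.

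The ratios of the peptide-binding chains, of Cd74 and of H2-DM lay mostly above 0 in the knockout, while those of H2-O and Ciita lay near or below 0. No member passed the threshold, an adjusted p of 0.05 in limma's moderated test with Benjamini-Hochberg adjustment over all 20738 genes. Among all genes, 0.328% passed. A raw p, before adjustment, was below 0.05 for 6 of the 10 members, all with a positive mean. The share of all genes with such a p was 26.3%, made up of 12.0% with a positive and 14.3% with a negative mean. The same 6 members were above 0 on all 3 arrays, as were 23.2% of all genes. The median of the members was 0.51, against -0.03 for all genes.

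Sox4 itself averaged -0.31 ± 0.44 (SD, n = 3; adjusted p = 0.332 in limma), and the mean of its 3 features was 0.18 on array 2. The Sox4 knockout label of array 2 is thus not borne out by the gene as a whole. Its features there had 1.23, 0.03 and -0.72, so they disagreed. The feature at -0.72 was below 0 on every array (-1.21, -0.72 and -0.93, mean -0.95 ± 0.25, n = 3). The feature at 1.23 had 0.06 and -0.02 on arrays 1 and 3, and the other had -0.82 and -0.43. The sex-linked genes Xist (1.71 ± 0.18, n = 3) and Eif2s3y (-7.28 ± 0.25, n = 3), named after their values were seen, differed on every array, so sex and genotype cannot be told apart in any result here. Ratios of 2 channels carry no level, so the tissue could not be checked against its defining markers. In whole tissue a ratio also does not tell fewer or more class II-bearing cells from less or more RNA per cell.

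**Figure D1:**
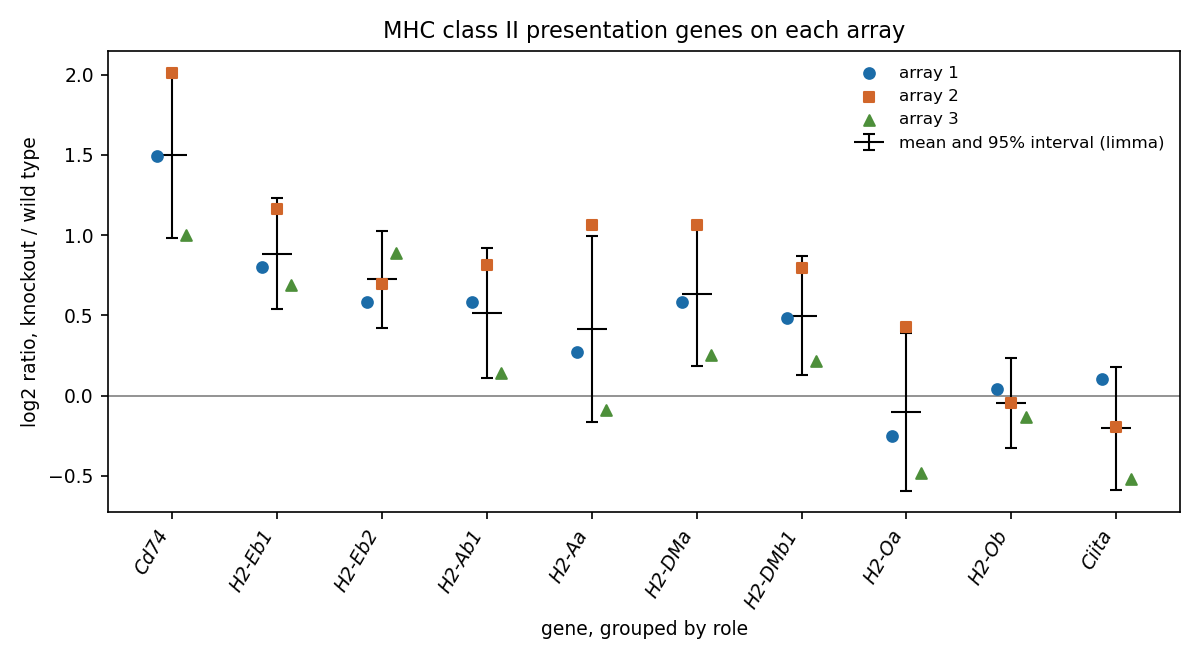
Log2 ratio of knockout over wild type (vertical axis) for the 10 class II presentation genes (horizontal axis), ordered as invariant chain, peptide-binding chains, H2-DM, H2-O and Ciita. Coloured points are the 3 arrays, the black dash is their mean and the bar is the 95% interval from limma; Cd74 stands highest, and 6 genes lie above 0 on every array.

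Cd74, the invariant chain that chaperones class II dimers to the endosome, had the highest ratio of the members on each array. Arrays 1, 2 and 3 gave it 1.49, 2.01 and 0.999. The mean was 1.501 ± 0.51 (SD, n = 3), a 2.83-fold higher level with a 95% interval of 1.98- to 4.05-fold (adjusted p = 0.060 in limma). By ratio it ranked 52nd, 18th and 233rd of all genes on arrays 1, 2 and 3, and 22nd by its mean. With the sign turned these ranks would be 20686th, 20721st, 20504th and 20717th of 20738. It stood above every other member on each of the 3 arrays, by the least over H2-Eb2 on array 3 (0.11) and by the most over Ciita on array 2 (2.21).

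The beta chain genes of the I-E class came next. H2-Eb1 encodes the beta chain of the I-E heterodimer and had ratios of 0.80, 1.16 and 0.69 on arrays 1, 2 and 3. Its mean was 0.88 ± 0.25 (SD, n = 3; 1.85-fold higher, 95% interval 1.45 to 2.34; adjusted p = 0.064 in limma). All 3 arrays were therefore well above 0, with array 2 highest. H2-Eb2, a neighbouring beta chain gene of the same class, had 0.59, 0.70 and 0.89. Its mean was 0.72 ± 0.15 (SD, n = 3; 1.65-fold higher, 95% interval 1.34 to 2.04; adjusted p = 0.066 in limma), the smallest spread among the 7 members with a positive mean. H2-Eb2 was also the only member that was highest on array 3.

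The partner of the I-E beta chain, H2-Ea, is not a member and is annotated in RefSeq as a transcribed pseudogene in the reference strain. Its ratios were 0.00, -0.47 and 0.13 on arrays 1, 2 and 3 (mean -0.11 ± 0.31, n = 3; limma adjusted p = 0.660). They lay on both sides of 0, and the lowest was on array 2, where H2-Eb1 was highest.

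The I-A heterodimer is formed by the products of H2-Ab1 and H2-Aa. H2-Ab1, the beta chain, had ratios of 0.59, 0.82 and 0.14 on arrays 1, 2 and 3, and a mean of 0.51 ± 0.34 (SD, n = 3; 1.43-fold higher, 95% interval 1.08 to 1.89; adjusted p = 0.132 in limma). Its 2 features gave almost the same mean, 0.51 and 0.52, and lay closest to 0 on array 3 (0.12 and 0.17). H2-Aa, the alpha chain, had 0.27, 1.06 and -0.09, with a mean of 0.41 ± 0.59 (SD, n = 3; 95% interval of the log2 ratio -0.17 to 0.99; adjusted p = 0.306 in limma). H2-Aa thus crossed 0 on array 3, and its mean was 0.09 without array 2.

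H2-DM, the endosomal editor that exchanges the invariant chain fragment for peptide, is made of an alpha and a beta chain. H2-DMa, the alpha chain, had 0.58, 1.06 and 0.25 on arrays 1, 2 and 3 (mean 0.63 ± 0.41, n = 3; 1.55-fold higher, limma adjusted p = 0.113). H2-DMb1, the beta chain, had 0.48, 0.79 and 0.22 (mean 0.50 ± 0.29, n = 3; 1.41-fold higher, limma adjusted p = 0.121). Both were above 0 on every array and shared the order of arrays, with array 2 highest and array 3 lowest. The adjacent duplicate H2-DMb2, not a member, had 0.09, 0.87 and -0.12 (mean 0.28 ± 0.52, n = 3; limma adjusted p = 0.429). The beta chain genes are similar in sequence and the feature sequences are not used here, so signal may be shared between H2-DMb1 and H2-DMb2, and likewise between H2-Eb1 and H2-Eb2.

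H2-O, the inhibitor of H2-DM, is made mainly by B cells and some dendritic cells. H2-Oa, its alpha chain, had -0.25, 0.43 and -0.48 on arrays 1, 2 and 3 (mean -0.10 ± 0.47, n = 3; limma adjusted p = 0.766). Its mean was 0.09 when array 3 was left out, so its direction rested on that array. H2-Ob, the beta chain, averaged -0.05 ± 0.09 (n = 3; limma adjusted p = 0.817; 95% interval -0.33 to 0.24), with 0.04, -0.04 and -0.14 on the arrays.

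The small spread of H2-Ob hid features that disagreed. Those designed on the RefSeq transcript had means of -0.18 ± 0.38 and -0.19 ± 0.31 (n = 3), and both were highest on array 2 (0.17 and 0.05) and lowest on array 3 (-0.58 and -0.55). The third, designed on another cDNA accession, ran the other way, with 0.35, -0.35 and 0.72 on arrays 1, 2 and 3. The RefSeq features of H2-Ob therefore had the order of arrays seen for H2-Oa, H2-DMa and H2-DMb1.

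Ciita, the coactivator that switches class II promoters on, had the lowest mean of the 10 members. It had 0.10, -0.19 and -0.52 on arrays 1, 2 and 3, with a mean of -0.20 ± 0.31 (SD, n = 3; 95% interval -0.59 to 0.18; adjusted p = 0.427 in limma). Cd74 exceeded it by 1.39, 2.21 and 1.52 on the 3 arrays. Ciita rested on 1 feature, as did 8 of the 10 members.

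The arrays were not alike in the size of the ratios. The median of the 10 members was 0.53, 0.80 and 0.18 on arrays 1, 2 and 3, while that of all genes lay between -0.032 and -0.001. Of the 10 members, 7 were highest on array 2 and 9 were lowest on array 3. Among all 20738 genes, 7053 were highest on array 2, and those lowest on array 3 were not counted. On array 2 the members reached from -0.19 (Ciita) to 2.01 (Cd74), and 7 were in the top 10% of all genes by ratio (the bottom 10% with the sign turned), against 6 on array 1 and 3 on array 3. The order of arrays was 2, 1, 3 from high to low for 7 members, as for 16.5% of all genes; the exceptions were H2-Eb2 (3, 2, 1) and H2-Ob and Ciita (1, 2, 3). Array 2 holds the library labelled Sox4 knockout in which the Sox4 ratio was positive. Without it the members' median was 0.36 and the raw p of 4 members lay below 0.05, against 22.1% of all genes. Without array 1 the number was 4 (15.8% of all genes) and without array 3 it was 7 (18.7% of all genes).

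The factors that assemble on class II promoters were described next. These promoters carry a conserved X box, bound by the RFX complex with CREB beside it, and a Y box, bound by the trimeric factor NF-Y, and Ciita docks on that assembly. None of the 12 genes of the class II transcription list passed the threshold. A raw p below 0.05 was found for 4 with a positive and 1 with a negative mean (41.7%, against 26.3% of all genes). The median was 0.11. Nfya, the DNA-contacting NF-Y subunit, had 0.59, 0.34 and 0.37 (mean 0.43 ± 0.14, n = 3; limma adjusted p = 0.108). The histone acetyltransferase genes Crebbp and Ep300 had means of 0.54 ± 0.30 and 0.37 ± 0.15 (n = 3). The remaining positive mean was that of Rfxap, an RFX subunit, at 0.39 ± 0.29, and the negative one was that of Crem, a CREB relative, at -0.29 ± 0.04. The other RFX subunits Rfx5 (0.14 ± 0.13) and Rfxank (-0.03 ± 0.22) were nearer to 0; the RFX genes are named outside the rule.

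The promoter stretches below show the shared boxes of members that did and did not have high ratios. They are RefSeq sequences of mouse build GRCm38.p6, on chromosome 17, printed 5′ to 3′ on the strand of the gene, and all lie before the listed transcription start. Capitals mark the Y motif TGATTGG near the right end and, where found, the X motif AGNAACNNATG to its left, in which N is any base. The X motif is the set of letters shared by 4 of these promoters at that place, so those 4 hold it by construction, and the Y motif was also written with the promoters in view.
H2-Eb1: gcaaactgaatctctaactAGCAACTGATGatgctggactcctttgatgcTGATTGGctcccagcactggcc
H2-Eb2: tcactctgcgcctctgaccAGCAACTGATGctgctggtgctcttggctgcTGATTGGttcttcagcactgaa
H2-DMb1: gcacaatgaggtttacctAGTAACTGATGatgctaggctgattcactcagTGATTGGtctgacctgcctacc
H2-Ob: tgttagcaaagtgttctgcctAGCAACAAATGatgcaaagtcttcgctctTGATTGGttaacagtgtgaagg
H2-Aa: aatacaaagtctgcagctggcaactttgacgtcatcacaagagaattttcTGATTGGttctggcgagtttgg
H2-Oa: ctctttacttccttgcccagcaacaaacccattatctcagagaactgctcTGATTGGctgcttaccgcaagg

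The stretches are chr17:34305756-34305827 (H2-Eb1, plus strand), chr17:34325523-34325594 (H2-Eb2, plus), chr17:34153078-34153149 (H2-DMb1, plus), chr17:34238796-34238867 (H2-Ob, plus), chr17:34287852-34287923 (H2-Aa, minus) and chr17:34092284-34092355 (H2-Oa, plus). Promoter windows were used for 7 of the 10 members. H2-Ab1 and Ciita had no matched window. Cd74, the member with the highest ratios, lies on another chromosome and was left out by choice, so its motifs are not described here. Of the 7, 6 held the Y motif in the 250 bases before the start, and H2-DMa held it in neither of its 2 windows on either strand. Over 32851 such windows of all genes, 7.23% held the Y motif and 0.715% the X motif on either strand, and the motifs do not overlap.

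In H2-Eb1 and H2-Eb2, 20 bases separated the X motif from the Y motif, in H2-DMb1 21 and in H2-Ob 18. Of all 32851 windows, only these 4 held the X motif upstream of the Y motif on the same strand within 40 bases. The X motif was read from these 4 promoters, so their matches were fixed in advance. The count therefore describes that pattern and is no test of class II promoters. Their ratios were not alike: H2-Eb1, H2-Eb2 and H2-DMb1 were above 0 on every array, and H2-Ob was near 0. H2-Aa and H2-Oa, with the Y motif and no match to these letters of the X motif, had means of 0.41 and -0.10. A motif match is a description of the sequence and not a measured site.

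The neighbours on chromosome 17 were examined because 8 of the 10 members lie together there. From H2-Oa to Btnl2 the RefSeq annotation lists 16 protein-coding or transcribed pseudogene loci, all measured. The 8 that are not members include the immunoproteasome subunit genes Psmb8 and Psmb9 and the peptide transporter genes Tap1 and Tap2, which serve MHC class I. These 4 had a raw p below 0.05 and ratios above 0 on every array. Among all genes, 26.3% had such a p and 23.2% were above 0 on every array. Psmb9 had 0.53, 0.59 and 0.63 (mean 0.59 ± 0.05, n = 3; limma adjusted p = 0.071), and Psmb8 had 0.51, 0.55 and 0.55 (mean 0.54 ± 0.02, n = 3; limma adjusted p = 0.077). The arrays of Psmb9 and Psmb8 lay closer together than those of the members on either side, H2-DMb1 and H2-Ob, and array 3 was not lowest. Brd2, a chromatin reader between H2-Oa and H2-DMa, averaged 0.04 ± 0.06, and Btnl2, a butyrophilin-like gene at the far end, 0.15 ± 0.15 (n = 3).

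**Figure D2:**
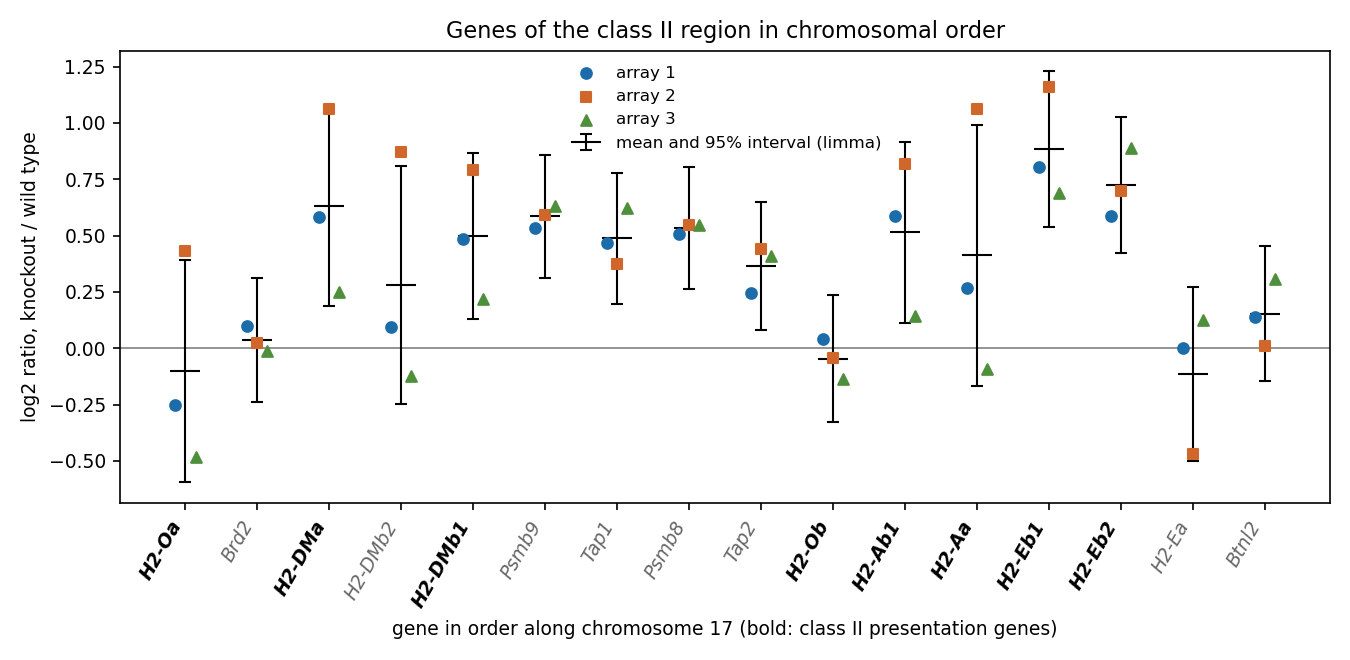
Log2 ratio of knockout over wild type (vertical axis) for the 16 genes from H2-Oa to Btnl2, evenly spaced in their order along chromosome 17 (horizontal axis), with class II presentation genes in bold. Points are the 3 arrays and bars the 95% interval of the mean from limma; Psmb9, Tap1, Psmb8 and Tap2 lie above 0 with arrays close together, whereas H2-Aa, H2-Oa and H2-DMb2 spread across 0.

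Class I presentation genes, which load peptides from the cytosol for CD8 T cells, also lay above 0. All 15 had a positive mean, 12 were above 0 on every array, and the median was 0.37, with 0.37, 0.34 and 0.27 on arrays 1, 2 and 3. A raw p below 0.05 was found for 8 (53.3%, against 26.3% of all genes), all with a positive mean, and none passed the threshold. H2-D1, a class I heavy chain, had 0.94, 1.16 and 0.83 (mean 0.98 ± 0.17, n = 3; limma adjusted p = 0.054), and it passed the threshold under 3 of the alternatives, at an adjusted p between 0.0433 and 0.0496. The light chain gene B2m averaged 0.22 ± 0.08 and is named outside the rule.

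Interferon gamma signalling, the main inducer of Ciita outside professional antigen-presenting cells, was read from 18 measured genes. Their median was -0.12, and none passed the threshold. A raw p below 0.05 was found for 1 gene with a positive and 6 with a negative mean (38.9%, against 26.3% of all genes). The cytokine gene Ifng itself had -0.43, -1.04 and -0.45 (mean -0.64 ± 0.35, n = 3; limma adjusted p = 0.097), lowest on array 2, where 7 of the 10 class II genes were highest. Its receptor chain gene Ifngr1 averaged -0.52 ± 0.11 and the tryptophan-degrading target Ido1 -0.62 ± 0.23 (n = 3). The positive mean was that of Irf8, a transcription factor of dendritic cells and B cells, with 0.39, 0.44 and 0.54 (mean 0.46 ± 0.08, n = 3; limma adjusted p = 0.093). The induced genes Cxcl9 and Igtp, named after their values were seen, had their lowest ratios on array 2 (-0.58 and -0.77) and positive ones on arrays 1 and 3. Of the 18 genes, 11 were lowest and 5 highest on array 2, Ido1 (-0.68, -0.37 and -0.82) among the 5. Among all 20738 genes, 7852 were lowest and 7053 highest there.

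The processing list holds the proteases and trafficking genes that prepare antigen and trim Cd74. None of its 12 genes passed the threshold, and the median was -0.12. Of the list, 2 with a positive and 2 with a negative mean had a raw p below 0.05 (33.3%, against 26.3% of all genes). Ctsl, the cathepsin that trims Cd74 in thymic epithelium, had -1.05, -0.87 and -1.37 (mean -1.10 ± 0.25, n = 3; limma adjusted p = 0.054). Ctse, an endosomal aspartic protease, averaged -0.59 ± 0.34 (n = 3). Cathepsin Z (Ctsz, 0.39 ± 0.13) and the thiol reductase Ifi30, which unfolds disulfide-bonded antigen (0.35 ± 0.22), had positive means. Ctss, the cathepsin that trims Cd74 in professional antigen-presenting cells, averaged -0.16 ± 0.09 and was below 0 on every array; it is named outside the rule.

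Cells that carry class II constitutively were examined through their marker lists, and none of their genes passed the threshold. Of 13 dendritic cell genes, 11 had a positive mean and the median was 0.21, with 0.22, 0.27 and 0.11 on arrays 1, 2 and 3. The single raw p below 0.05 (7.69% of the list, against 26.3% of all genes) belonged to Cd209a, a C-type lectin of dendritic cells, at -0.44 ± 0.20 (n = 3). The lineage factor gene Zbtb46 (0.26 ± 0.24), named outside the rule, and the cross-presenting cell receptor gene Clec9a (0.23 ± 0.07) were above 0 on all arrays. The integrin gene Itgae, also carried by intraepithelial T cells, averaged 0.27 ± 0.12, and the actin bundler gene Fscn1 0.51 ± 0.58 (0.19 without array 2).

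The macrophage list of 13 genes had a median of 0.18, with array medians of -0.02, 0.49 and 0.07. On array 2, 10 of its genes were highest, as were 7053 of all 20738 genes. Of its genes, 10 had a positive mean and 2 (15.4%, against 26.3% of all genes) had a raw p below 0.05. These were Cd14 (0.36 ± 0.22, and 0.24 without array 2) and Mertk (0.28 ± 0.03, n = 3). The complement gene C1qc had 0.12, 0.79 and 0.15. The Fc receptor gene Fcgr1 was opposite, with -0.45, -1.01 and 0.08. The part of macrophage RNA in the class II ratios was not tested.

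The B cell list of 11 measured genes had a median of 0.21 and array medians of 0.15, 0.10 and 0.28. A raw p below 0.05 was found for 3 genes with a positive and 1 with a negative mean (36.4%, against 26.3% of all genes). Blk, a Src-family kinase of B cells, had 1.68, 1.83 and 0.94 (mean 1.48 ± 0.48, n = 3; limma adjusted p = 0.057), values close to those of Cd74. Cd79a, the signalling chain of the B cell receptor, had 0.69, 1.36 and 0.28 (mean 0.78 ± 0.54, n = 3, and 0.49 without array 2). That is the order of arrays of the H2-DM genes, found for 3 of the 11 genes (27.3%, against 16.5% of all genes). The low-affinity IgE receptor gene Fcer2a averaged 0.46 ± 0.08 and Fcrla -0.42 ± 0.30. Of the 11 genes, 7 had a positive mean and 5 were above 0 on every array. The rest of the list, none of it with a raw p below 0.05, was Ms4a1 (0.53 ± 0.61), Cr2 (0.27 ± 0.14), Pax5 (0.21 ± 0.27), Bank1 (0.01 ± 0.06), Cd22 (-0.04 ± 0.13), Cd79b (-0.14 ± 0.34) and Spib (-0.25 ± 1.13). The part of B cell RNA in the class II ratios was not tested.

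Plasma cells, which shut class II off, had a median of -0.05 over 7 genes. A raw p below 0.05 was found for 2 (28.6%, against 26.3% of all genes), Tnfrsf17 (-0.66 ± 0.37) and Mzb1 (-0.55 ± 0.33, n = 3). The list was mixed, with 3 positive and 4 negative means. Prdm1 averaged -0.27 ± 0.16, and Jchain, the highest of the list, 0.34 ± 0.47 (n = 3). In 6 of these 7 genes (85.7%, against 16.5% of all genes) the order of arrays was 2, 1, 3, as in most class II genes. The part of plasma cell RNA in the class II ratios was not tested. The median of 12 T and innate lymphoid cell genes was -0.16, and 5 (41.7%) had a raw p below 0.05, all with a negative mean. Among them were Cd8b1 (-0.64 ± 0.21) and Cd5 (-0.68 ± 0.32, n = 3). Cd4, the coreceptor that binds class II, averaged 0.23 ± 0.10 with all arrays above 0, and Lag3, an inhibitory class II receptor, 0.37 ± 0.33; both are named outside the rule. Over all 12 genes of costimulation and class II receptors the median was 0.07, and 3 (25.0%, against 26.3% of all genes) had a raw p below 0.05. They were the T cell ligand gene Cd40lg (0.86 ± 0.70, and 0.46 without array 2), Ctla4 (-0.36 ± 0.11) and Cd40 (-0.33 ± 0.14). The B7 ligand genes Cd80 and Cd86, named after their values were seen, averaged 0.04 ± 0.13 and 0.09 ± 0.03.

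Epithelial markers stand for the compartment in which villin-driven Cre acts. Over 15 genes the median was 0.13, with 0.13, 0.09 and 0.15 on the arrays. A raw p below 0.05 was found for 4 (26.7%, against 26.3% of all genes), all with a positive mean. Among them were Krt19 (0.83 ± 0.21, limma adjusted p = 0.064) and Vil1 (0.48 ± 0.14, n = 3). Of the 15 genes, 10 had a positive and 5 a negative mean. The lowest mean was that of Fabp2 (-0.30 ± 0.28), named outside the rule. None passed the threshold. The order of arrays found for most class II genes was that of 3 of the 15, Apoa1 (0.43, 0.69 and 0.10), Alpi (0.47, 0.97 and -0.12) and Epcam (-0.03, -0.03 and -0.75), the last 2 named outside the rule.

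Genes that the epithelium raises on contact with microbes were set beside the class II genes because class II of enterocytes also responds to the flora. The median of 11 genes was 1.0, with 0.89, 0.56 and 2.31 on arrays 1, 2 and 3. Of them, 6 (54.5%, against 26.3% of all genes) had a raw p below 0.05, all with a positive mean. None passed the threshold. Reg3g, a bactericidal lectin, had 4.74, 0.56 and 4.84, and the inducible nitric oxide synthase gene Nos2 had 0.92, 0.55 and 2.56, so both were lowest on array 2. Over all 3 arrays Reg3g averaged 3.375 ± 2.44 (n = 3; limma adjusted p = 0.098). Without array 2, on arrays 1 and 3 only, it passed the threshold (mean 4.79, limma adjusted p = 0.00386). It did not pass without array 1 (limma adjusted p = 0.302) or without array 3 (limma adjusted p = 0.274). Fut2, the epithelial fucosyltransferase, had 0.93, 1.61 and 0.47 (mean 1.0 ± 0.58, n = 3; limma adjusted p = 0.086), and the immunoglobulin transporter gene Pigr 0.55, 0.73 and 0.18 (mean 0.49 ± 0.28, n = 3; limma adjusted p = 0.122). Of the 11 genes, only Fut2 and Pigr (18.2%) had the order of arrays found for 7 of the 10 class II genes. The share of all genes with that order was 16.5%. Against 7852 lowest and 7053 highest on array 2 among all 20738 genes, the 11 had 6 lowest and 5 highest. Among the latter were the genes of an epithelial oxidase, Duox2 (-0.49, 2.24 and -0.08) and its partner Duoxa2 (-2.34, 1.01 and -1.45), and the antibacterial Retnlb (-3.24, 0.99 and -0.18), named after their values were seen; Duoxa2 and Retnlb had the 2 negative means of the list.

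**Figure D3:**
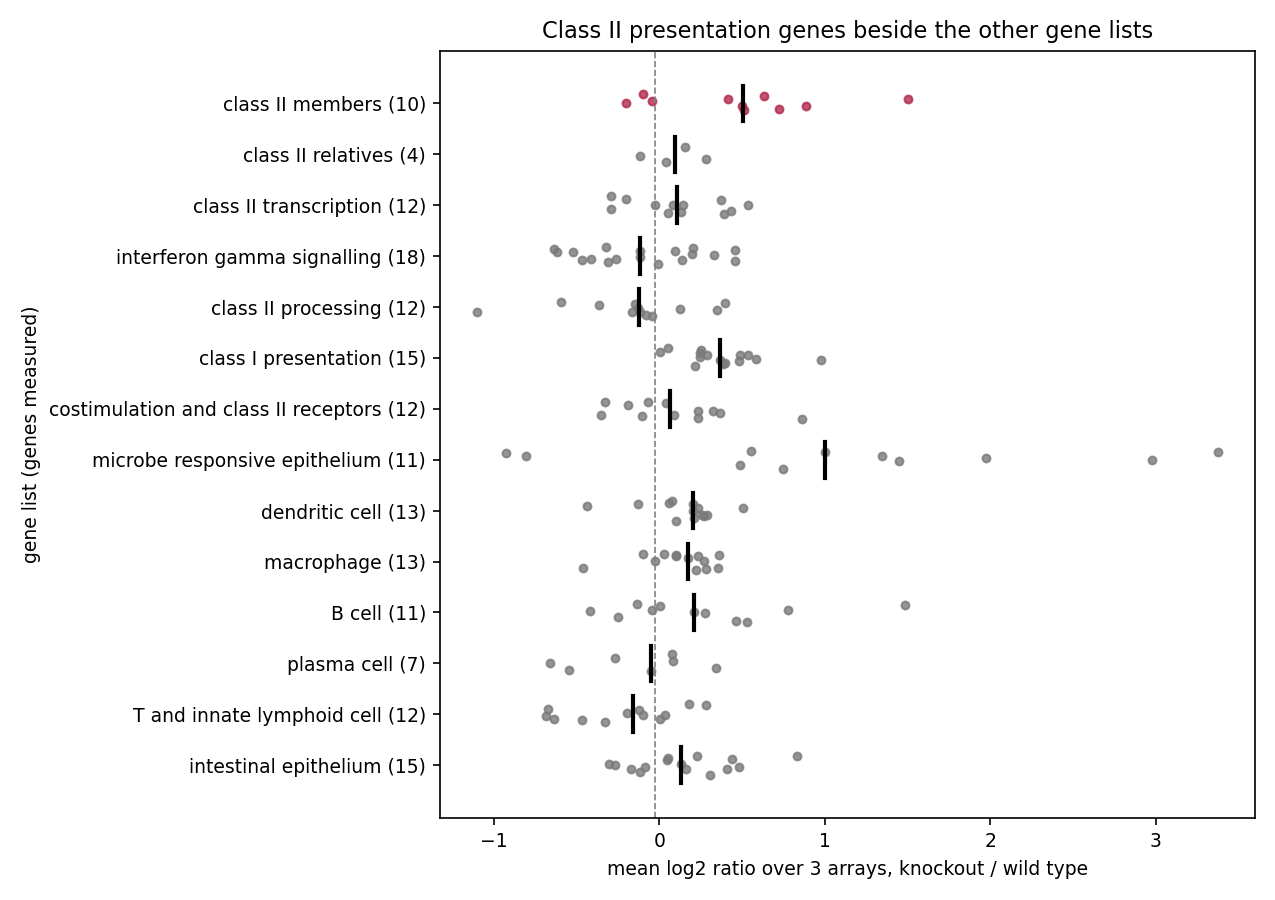
Mean log2 ratio over 3 arrays, knockout over wild type (horizontal axis), for each measured gene (point) of each gene list (vertical axis, with the number of genes measured); points are shifted vertically only to separate them. The black bar is the list's median and the dashed line the median of all 20738 genes; the class II members have a median of 0.51, class I genes 0.37 and interferon gamma signalling -0.12.

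The genes nearest to Cd74 by Euclidean distance over the 3 arrays were Olfr1353 (0.177), Blk (0.271), Olfr1467 (0.286), Wfdc18 (0.349) and 4930404H24Rik (0.398), none of them a member. Nearest to the mean of the members were Srrt (0.00523), the member H2-DMb1 (0.029), Myo18a (0.0331), Maz (0.0506) and Olfr620 (0.0685). With 3 arrays such closeness describes the values only.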

How the data were processed

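The deposited values are log2 ratios of 2 channels on each of 3 Agilent arrays, 62976 features without a missing value. No source used here gives the authors' background correction or normalization, the log base or the ratio's direction. Without intensities, dim features stayed in, and precision is limited by there being 3 arrays. Array medians were between 0.003 and 0.011, so no further scaling was applied. Features were named through the platform annotation, updated by accession through a RefSeq table of GRCm38.p6 (29036 by accession, 2075 by current symbol, 349 by synonym, 5 kept), and 31511 features were unnamed. Features of a symbol were averaged, giving 20738 genes. Each gene's mean ratio was set against 0 by limma (version 3.58.1, R 4.3.3; lmFit and eBayes, two-sided, Benjamini-Hochberg over all genes); errors are SDs over arrays. It is not known how far the spread among wild-type animals enters this test, because the labels do not say whether their RNA was pooled. As every array had the same dye order, dye and genotype cannot be told apart. The labels do not say whether the mice came from separate litters, so p-values measure only the spread between these samples. Tables and figures used Python 3.11.15, pandas 2.3.3 and matplotlib 3.10.9, and the fit was tested on simulated data.

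The members and the 13 other lists were chosen with earlier results of these data known. Genes named by rule were the members, Sox4, in each list up to 4 genes with the smallest p, and the 5 genes nearest to Cd74 and to the members' mean. Alternatives left out each array, took the median or 1 feature per gene, centred, scaled or quantile-normalized the arrays, kept old symbols, and used robust moderation or array weights.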

Additional observations from a re-analysis of the deposited data

How the results depend on the processing

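The members with a positive mean kept that direction under all 12 alternatives. No member passed the threshold in 11 of them; with array weights 1 did, Cd74 (1.45, limma adjusted p = 0.0453; its range over the alternatives was 0.0453 to 0.24). H2-D1, Ctsl and Blk, which are not members, also passed with array weights (adjusted p = 0.0433, 0.0428 and 0.0453), and H2-D1 with 1 feature per gene (0.0496) and quantile normalization (0.0493). Array weights called 265 genes in all (118 higher, 147 lower), 1 feature per gene 155 (76 higher, 79 lower) and quantile normalization 100 (41 higher, 59 lower). The main fit called 68 (22 higher, 46 lower), while leaving out array 1 or 3 called 10 or 4. The members' median ranged from 0.36 to 0.65 when an array was left out, and the number with a raw p below 0.05 from 4 to 7. With an array left out, signs turned for H2-Oa (-0.3675 without array 2 to 0.089 without array 3), H2-DMb2 (-0.014 without array 2 to 0.481 without array 3) and H2-Ea (0.063 without array 2 to -0.234 without array 3), and with 1 feature per gene for Icos (-0.13); the cause was not tested. Leaving out the odd H2-Ob feature, chosen after seeing the data, gave -0.19. No paired analysis was possible because the arrays form 1 group.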
